A study of Mus musculus with 16 samples.

Results

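Nr4a1, Nr4a2, Nr4a3, Egr1, Egr2, Egr3, Egr4 and Srf encode transcription factors of the immediate-early response. These 8 genes were chosen by name from 21887 protein-coding genes, with earlier results of these data known. Every listed chromatin region within 50 kb of their bodies was taken, 69 of the 135884 regions in 3 lists. The lists come from chromatin immunoprecipitation followed by sequencing (ChIP-seq) of immortalized mouse embryonic fibroblasts. Both lines carried R26M2rtTA/+, a transactivator that needs doxycycline, and TetOcre, a Cre recombinase that it switches on, and both received doxycycline at 1 µg/mL and were taken at day 16. The experimental line was Sdhcfl/fl, with both copies of the succinate dehydrogenase subunit gene Sdhc flanked by loxP sites, and the control line was Sdhcfl/wt, with a wild-type copy left. Input chromatin and chromatin bound by each of the 3 antibodies were sequenced in 2 samples per line, 16 samples in all. The labels name no clones behind either line.

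Each antibody had 1 deposited list for its 4 ChIP samples, with the position of each region and no height or score. A gene could therefore not be compared between Sdhcfl/fl and Sdhcfl/wt cells, no spread between replicates exists, and no test was made. Read depth is unknown. A gene without a listed region is a gene without a call, and at unknown depth this does not show that the mark is absent. The labelled cell type was checked by marker genes. H3K4me3 lay at an end of 8 of 10 fibroblast markers, with Thy1 and Postn as the exceptions, beside 55.6% of all genes. It lay at an end of 1 of 5 neuron, 1 of 5 blood, 2 of 5 epithelium and 1 of 4 endothelium markers. H3K27me3 lay at an end of 0 of 10 fibroblast, 4 of 5 neuron, 1 of 5 blood, 2 of 5 epithelium and 0 of 4 endothelium markers, beside 13.6% of all genes.

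Immediate-early genes are transcribed within minutes of a growth factor or stress signal, without new protein synthesis. Srf, the serum response factor, binds the CArG box together with ternary complex factors or with actin-regulated myocardin-related coactivators, and many Egr and Fos genes depend on it. Nr4a genes encode orphan nuclear receptors that are induced largely through CREB, the factor that binds the cyclic AMP response element (CRE). Egr genes encode zinc finger factors that bind GC-rich DNA. H3K4me3 marks active promoters, H3K27me3 is the mark of Polycomb repression, and succinyllysine is lysine that carries a succinyl group, made from succinyl-CoA.

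Succinyllysine was listed at the 3 Nr4a genes, H3K4me3 at or in all 8 genes, and broad H3K27me3 around Egr4. A gene counted as marked at an end when any base of a region fell within 1000 bp of its lower or upper end. Succinyllysine lay at an end of 3 of the 8 genes (37.5%), which were Nr4a1, Nr4a2 and Nr4a3, beside 5.42% of all protein-coding genes and 8.46% of those with H3K4me3 at an end. H3K4me3 lay at an end of 7 of 8 genes (87.5%), all but Egr2, beside 55.6% of all genes. H3K27me3 lay at an end of Egr4 alone (12.5%), close to the 13.6% of all genes. Inside the gene, more than 1000 bp from both ends, succinyllysine was listed for Nr4a1 and Nr4a2 (6.84% of all genes). H3K4me3 was listed there for 7 genes, all but Egr4 (55.4% of all genes), and H3K27me3 for none of the 8 (17.1% of all genes). A region could count both at an end and inside. H3K4me3 regions inside that touched no end window lay in 4 genes, a share not counted over all genes. The inside call depends on gene length, and Egr4, at 2469 bp, leaves little body for it.

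Within the 50 kb reach, the 8 genes had 7 succinyllysine regions, 25 H3K4me3 regions and 37 H3K27me3 regions. All 7 succinyllysine regions belonged to the Nr4a genes, 4 to Nr4a1, 2 to Nr4a2 and 1 to Nr4a3, so 3 of 8 genes had such a region in reach beside 30.2% of all genes. H3K4me3 lay in reach of all 8 genes (82.3% of all genes) and H3K27me3 in reach of 3, Nr4a2, Nr4a3 and Egr4 (51.5% of all genes). The succinyllysine regions' median width was 1200 bp, beside 300 bp in the whole list. Each touched an H3K4me3 region, beside 16.9% of the whole list. Of the 15500 bp, 6100 (39.4%) lay on H3K4me3, beside 27.9% of the whole list. The pooled share hides a split by gene. The regions at Nr4a2 and Nr4a3 lay wholly on H3K4me3. Nr4a1 held 12800 of the 15500 bp, and its regions of 2000, 5600, 1200 and 4000 bp shared 800, 700, 1200 and 700 bp. The whole list was not limited to regions near genes or of like width.

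Nr4a1 encodes Nur77, the receptor of the family known for a role in T cell death and in metabolism. The gene lies on chromosome 15 (101253902 to 101274795, mm10, plus strand), and the start annotated in the promoter table used here lies at 101266846, 12944 bp inside the gene's lower end. It carried the widest succinyllysine among the 8 genes. A region of 2000 bp (101246501 to 101248500) ran without a gap into a region of 5600 bp (101248501 to 101254100), which reached 199 bp into the gene. Joined, they made a stretch of 7600 bp, a width reached by 1.49% of the genes with succinyllysine at or in them. A region of 1200 bp (101254201 to 101255400) followed after a gap of 100 bp. The fourth region, 4000 bp wide (101262701 to 101266700), ended 146 bp before the annotated start.

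At Nr4a1 H3K4me3 overlapped each succinyllysine region and shared an edge with 3 of them. Apart from neighbouring genes, H3K4me3 lay in 3 stretches, of which the most upstream, 2 abutting regions of 1000 and 800 bp, shared 800 bp with the outermost succinyllysine. A region of 2000 bp (101253401 to 101255400) lay on the gene's lower end and contained the whole 1200 bp succinyllysine region, with the same upper edge. Abutting regions of 700, 1700 and 1000 bp (101266001 to 101269400) covered the annotated start. Of these, the 700 bp region lay wholly on succinyllysine and the 1700 bp region began where succinyllysine stopped. Succinyllysine thus covered 5399 bp of the gene body (25.8%) and H3K4me3 4899 bp (23.4%), with no H3K27me3 within 50 kb.

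Nr4a2 encodes Nurr1, the receptor needed for midbrain dopamine neurons. It lies on chromosome 2 (57106830 to 57124003, minus strand), with its annotated start at the upper end. A succinyllysine region of 1100 bp (57122901 to 57124000) began 3 bp after the start and ran into the gene, within an H3K4me3 region of 2500 bp (57122101 to 57124600) that covered the start. The same succinyllysine region lay at an end of LOC105244150, a predicted protein-coding gene that overlaps the start of Nr4a2. A second succinyllysine region, 900 bp wide (57116901 to 57117800), lay from 6203 to 7102 bp after the start. It lay within an H3K4me3 region of 5700 bp (57112801 to 57118500), wider than the region at the start itself. H3K4me3 covered 44.3% of the gene body and succinyllysine 11.6%. H3K27me3 appeared in 3 narrow regions of 300 to 400 bp, the nearest 14529 bp from the gene.

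Nr4a3 encodes Nor1 and lies on chromosome 4 (48045078 to 48086447, plus strand), with its annotated start at 48045305. Its single succinyllysine region was the narrowest of the 7, 700 bp (48043601 to 48044300), and lay from 1704 to 1005 bp before the start, 777 bp outside the gene. An H3K4me3 region of 4400 bp (48043501 to 48047900) contained it and covered the start, and a further H3K4me3 region of 1800 bp lay upstream. H3K4me3 covered 6.82% of this gene of 41370 bp and succinyllysine none of it. With windows of 500 bp, with the region's midpoint, or with the annotated start in place of the gene end, Nr4a3 was not called for succinyllysine, which leaves Nr4a1 and Nr4a2, 2 of the 6 genes with an annotated start (5.17% of all genes have succinyllysine within 1000 bp of one). H3K27me3 lay in 4 regions of 300 to 1900 bp, at least 27553 bp away.

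At none of the 3 Nr4a genes did succinyllysine cover the annotated start in the promoter table, while H3K4me3 covered it at each. The body of Nr4a1 begins farther upstream, at 101253902, and both succinyllysine and H3K4me3 covered that position. The start lay 146 bp from the nearest succinyllysine region at Nr4a1, 3 bp at Nr4a2 and 1005 bp at Nr4a3. Over all genes with an annotated start, 1.55% had succinyllysine on it and 54.4% had H3K4me3. Of the 904 genes with succinyllysine within 1000 bp of a start, 271 (30.0%) had it on the start. Region edges fall on a grid of 100 bp, so a distance of 3 bp is below the resolution of the list.

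**Figure D1:**
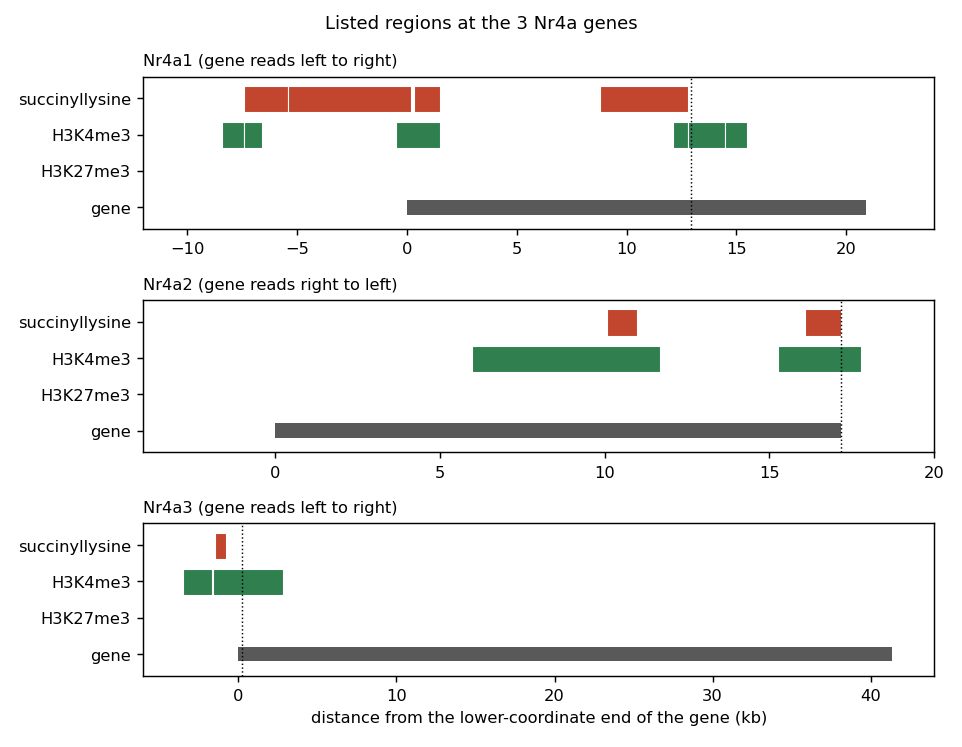
Listed regions at Nr4a1, Nr4a2 and Nr4a3, as coloured bars per antibody against the distance in kb from the lower-coordinate end of the gene (grey bar). Dotted lines mark annotated starts. Succinyllysine reaches farthest at Nr4a1, with a joined stretch of 7600 bp and a region of 4000 bp. Each dotted line crosses H3K4me3 but no succinyllysine, while both lie over the lower end of Nr4a1.

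The bases before the starts of the Nr4a genes are shown because these were the genes of the 8 with succinyllysine and because CREB sites are known there. Each is the 250 bases upstream of the annotated start from RefSeq (GRCm38.p6, the assembly of mm10), read in the direction of the gene. They are chr15:101266596-101266845 (plus), chr2:57124004-57124253 (minus) and chr4:48045055-48045304 (plus). Capitals mark the CRE core TGACG on either strand, which reads CGTCA on the other strand.
Nr4a1: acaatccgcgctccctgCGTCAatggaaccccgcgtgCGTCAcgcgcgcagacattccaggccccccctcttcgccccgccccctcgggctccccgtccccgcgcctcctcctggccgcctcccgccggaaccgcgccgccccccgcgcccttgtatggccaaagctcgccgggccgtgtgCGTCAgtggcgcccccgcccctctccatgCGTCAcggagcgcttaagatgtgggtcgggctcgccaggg
Nr4a2: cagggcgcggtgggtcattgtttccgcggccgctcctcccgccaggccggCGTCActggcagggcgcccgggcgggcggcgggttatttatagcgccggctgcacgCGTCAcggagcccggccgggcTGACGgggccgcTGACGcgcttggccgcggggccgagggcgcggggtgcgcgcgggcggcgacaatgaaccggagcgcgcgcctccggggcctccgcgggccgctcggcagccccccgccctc
Nr4a3: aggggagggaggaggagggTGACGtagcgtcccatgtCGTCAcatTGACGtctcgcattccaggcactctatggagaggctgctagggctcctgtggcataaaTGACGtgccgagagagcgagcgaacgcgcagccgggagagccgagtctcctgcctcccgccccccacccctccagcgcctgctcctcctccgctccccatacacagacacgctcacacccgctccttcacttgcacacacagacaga

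Each of the 3 held 4 CRE cores, and at least 1 was found for all 6 genes searched. Of 32851 promoters of 300 bases in the RefSeq table, which lists several starts for some genes, 20.8% held at least 1 CRE core. The share with 4 was not counted. The full palindrome TGACGTCA, which contains the core on both strands, was in none of the promoters of the 6 genes with an entry, beside 1.79% of all promoters, and so was the Nr4a element AAAGGTCA (1.51% of all). The EGR element GCGNGGGCG was found once each for Nr4a1, Nr4a2 and Srf, beside 5.55% of all promoters. GC content was 74.4% at Nr4a1, 80.0% at Nr4a2 and 63.6% at Nr4a3, beside a median of 52.4%. Of the 250 bases shown for Nr4a1, succinyllysine lay on 105, and it lay on none of those for Nr4a2 and Nr4a3. H3K4me3 lay on all 250 bases of each.

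Egr1, the best known of the Egr factors (also called Zif268 or Krox-24), lies on chromosome 18 (34861207 to 34864956). It carried a single H3K4me3 region at the gene, 5700 bp wide (34858701 to 34864400), which covered the lower end and 85.2% of the body, the largest share among the 8 genes. A further H3K4me3 region of 1700 bp lay 21544 bp above the gene and touched no end of another protein-coding gene. Egr3, which acts in muscle spindle development and lymphocytes, lies on chromosome 14 (70077317 to 70082613) and had an H3K4me3 region of 5800 bp (70073801 to 70079600) over its lower end. Neither gene had succinyllysine or H3K27me3 within 50 kb. The nearest succinyllysine region was 87.7 kb away from each, at the mitochondrial chaperone gene Hspa9 in the case of Egr1.

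Egr2, or Krox-20, is the regulator of hindbrain segments and of myelination by Schwann cells. It lies on chromosome 10 (67534469 to 67542188, plus strand), with 5 annotated starts from 67535499 to 67537930. Its H3K4me3 region of 4400 bp (67535601 to 67540000) began 1132 bp inside the lower end and was therefore not counted at an end. By the annotated starts the call differs: the region covered 4 of the 5 starts and began within 1000 bp of the other. All 6 genes with a start in the table had H3K4me3 within 1000 bp of it, beside 56.8% of all genes. A second H3K4me3 region, 5600 bp wide, lay 2912 bp above Egr2 at Ado, a thiol dioxygenase gene. Succinyllysine was not listed nearer than 464.0 kb.

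Srf lies on chromosome 17 (46546838 to 46558267, minus strand), with its annotated start at 46556162. Abutting H3K4me3 regions of 3400 and 1600 bp made a stretch of 5000 bp (46552901 to 46557900) over the start. A separate region of 1300 bp at its lower end also lay at an end of Cul9, an E3 ligase gene whose start is there. Srf had no succinyllysine and no H3K27me3 within 50 kb, and the nearest succinyllysine region lay 92.4 kb away.

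**Figure D2:**
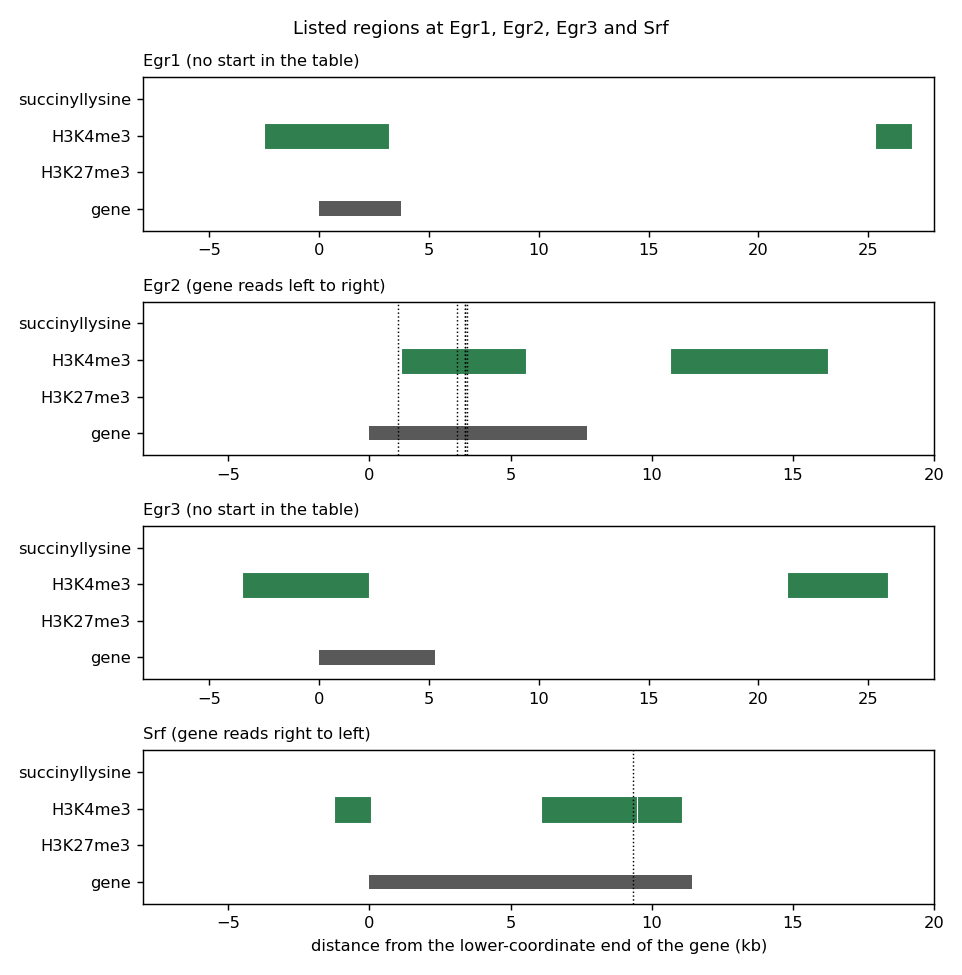
Listed regions at Egr1, Egr2, Egr3 and Srf, as coloured bars per antibody against the distance in kb from the lower-coordinate end of the gene (grey bar), with dotted lines at annotated starts. H3K4me3 stretches of 4400 to 5800 bp lie at or in each gene, and the succinyllysine and H3K27me3 rows are empty.

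Upstream bases are shown for Egr2 and Srf because theirs were the promoters with a CArG box, the site of Srf itself, among the 6 genes searched. Egr1 and Egr3 were not searched here. They are chr10:67537619-67537868 (plus), before the Egr2 start at 67537869, and chr17:46556163-46556412 (minus), from RefSeq GRCm38.p6. The Egr2 start was chosen for display after the search, from the 4 of its 5 starts with a CArG box upstream. Capitals mark CArG boxes and CRE cores.
Egr2: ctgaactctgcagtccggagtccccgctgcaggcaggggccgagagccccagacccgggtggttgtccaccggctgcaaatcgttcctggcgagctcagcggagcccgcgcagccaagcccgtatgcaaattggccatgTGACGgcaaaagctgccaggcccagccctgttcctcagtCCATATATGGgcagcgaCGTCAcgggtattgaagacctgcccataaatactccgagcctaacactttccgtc
Srf: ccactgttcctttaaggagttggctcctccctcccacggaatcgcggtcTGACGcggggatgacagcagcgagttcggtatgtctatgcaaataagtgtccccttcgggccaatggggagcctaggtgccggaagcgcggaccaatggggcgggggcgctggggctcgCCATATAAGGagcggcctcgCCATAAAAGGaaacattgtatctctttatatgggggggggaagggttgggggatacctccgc

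Srf held 2 CArG boxes, CCATATAAGG with its first base 82 bases before the start and CCATAAAAGG at 62. Egr2 held CCATATATGG at 72 bases before the start shown, and CCTTTTTTGG before its start at 67537566. A CArG box was present in 1.63% of the 32851 promoters. These shares are per promoter, while a gene counted when any of its promoters held the motif, and Egr2 had 5. The ETS core CCGGAA, bound by ternary complex factors among others, was found for Egr2, Nr4a1 and Srf, beside 14.9% of all promoters. H3K4me3 lay on all 250 bases shown for both genes, and succinyllysine on none.

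Egr4 stood in a different setting from the other 7 genes. It encodes the Egr factor known mainly from neurons and germ cells, and lies on chromosome 6 (85511121 to 85513589, minus strand), with its start at the upper end. Within 50 kb it had 30 H3K27me3 regions that summed to 60700 bp, 91.8% of the H3K27me3 near all 8 genes. H3K27me3 covered 59.2% of the gene with its 50 kb reach, a share that 0.914% of all protein-coding genes had or exceeded (median 0.167%). On the lower side lay 12 regions of 400 to 8300 bp, many of them in Fbxo41, an F-box gene. On the upper side lay 18 regions of 300 to 7700 bp, which touched no end of another protein-coding gene.

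The H3K27me3 around Egr4 was interrupted over the gene and at other places. The 8300 bp region (85503301 to 85511600) covered 480 bp at the 3′ end of Egr4, and the next, 7700 bp wide, began at 85513901, 312 bp before the start. Between them 2300 bp had no H3K27me3, among them the start and the upper part of the gene. Wider gaps lay below the gene, between 85490900 and 85494101 and between 85497000 and 85499801. H3K4me3 at Egr4 was a single region of 300 bp (85513801 to 85514100), from 511 to 212 bp before the start, with 200 bp on H3K27me3. Egr4 was so the only gene of the 8 with both histone marks at an end, beside 3.13% of all genes. Its nearest succinyllysine region lay 891.0 kb away.

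**Figure D3:**
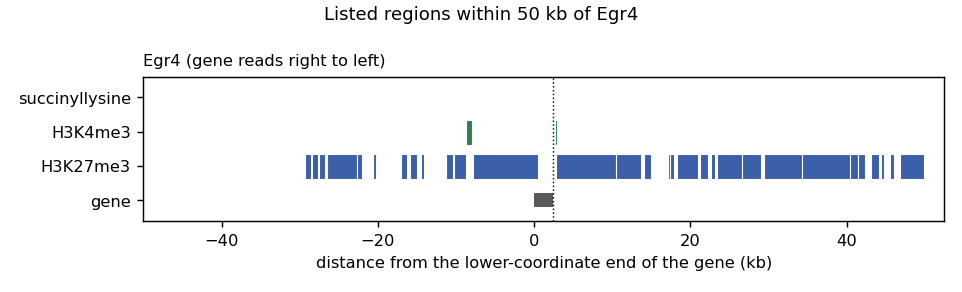
Listed regions within 50 kb of Egr4, as coloured bars per antibody against the distance in kb from the lower-coordinate end of the gene (grey bar), with a dotted line at the annotated start. The 30 H3K27me3 regions lie on both sides with several gaps. A gap of 2300 bp lies over the gene and its start, and succinyllysine is not listed.

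The bases before the Egr4 start are shown because they fall in a gap between H3K27me3 regions. They are chr6:85513590-85513839 (minus), from RefSeq GRCm38.p6, with CRE cores in capitals.
Egr4: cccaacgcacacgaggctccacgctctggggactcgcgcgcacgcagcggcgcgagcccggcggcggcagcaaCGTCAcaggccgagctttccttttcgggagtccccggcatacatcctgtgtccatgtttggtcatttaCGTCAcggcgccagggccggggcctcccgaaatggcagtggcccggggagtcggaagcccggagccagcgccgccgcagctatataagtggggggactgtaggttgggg

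They held 2 CRE cores, no CArG box, 28 CpG dinucleotides (median of all promoters 6.0) and a GC content of 68.0%. H3K4me3 lay on 39 of these 250 bases and H3K27me3 on none.

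The width of H3K4me3 separated Egr4 from the others. With abutting regions joined, the widest stretch at or in the gene was 300 bp at Egr4, 3400 bp at Nr4a1, 4400 bp at Nr4a3 and Egr2, 5000 bp at Srf, 5700 bp at Nr4a2 and Egr1, and 5800 bp at Egr3. The median over the 13421 protein-coding genes with H3K4me3 at or in them was 3600 bp. A stretch as wide as that of Egr3 occurred in 14.0% of these genes and one as wide as that of Egr4 in 98.6%. Nr4a1 sat near the median, with 55.9% of genes as wide, although it had the widest succinyllysine of the 8. The widest H3K4me3 stretch at Nr4a2 was the region inside the gene, not the one at its start.

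**Figure D4:**
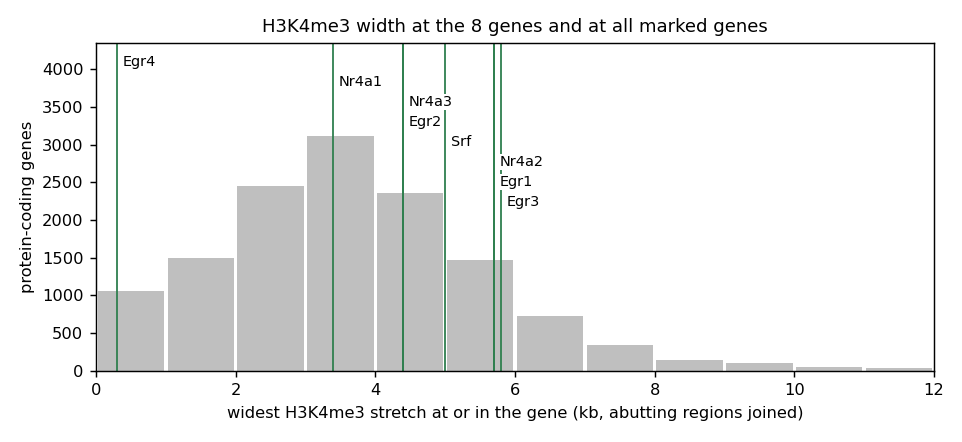
Widest H3K4me3 stretch per gene in kb, abutting regions joined, as a histogram over protein-coding genes with H3K4me3 at or in them, and as vertical lines for the 8 genes. Egr4 lies at the far left with 300 bp, the other 7 between 3400 and 5800 bp, and genes above 12 kb are not drawn.

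H3K4me3 beyond the genes belonged mostly to neighbours. Of the 11 H3K4me3 regions outside the gene and its end windows, 7 lay at an end of another protein-coding gene: Grasp and Atg101 beside Nr4a1, Stx17 beside Nr4a3, Ado beside Egr2, Bin3 beside Egr3, Fbxo41 beside Egr4 and Dnph1 beside Srf. None of these 7 shared a base with succinyllysine. The other 4 were the pair upstream of Nr4a1, the 1800 bp region upstream of Nr4a3 and the 1700 bp region above Egr1. The single succinyllysine region beyond a gene was the outermost one at Nr4a1, 5401 bp from the gene.

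In the surrounding pathway, H3K4me3 and succinyllysine were counted at gene ends. Of 30 genes in 5 lists (Srf cofactors, the MAP kinase relay, CREB and its coactivators, Egr corepressors and Nr4a partners), 26 had H3K4me3 at an end (55.6% of all genes) and 3 had succinyllysine (5.42% of all genes, and 8.46% of those with H3K4me3 at an end). These 3 were Map2k2, the kinase MEK2 (region of 900 bp), Atf1, a CREB relative (region of 1100 bp), and Nab2 (region of 700 bp). Nab2 is a corepressor of Egr factors that Egr1 induces. None of the 7 Srf cofactors had succinyllysine at an end. Among them Myocd, the muscle coactivator myocardin, had none of the 3 marks. Rxrg, a heterodimer partner of Nr4a receptors, had H3K27me3 (widest region at an end 8100 bp) and no H3K4me3. Rxra and Rxrb had H3K4me3 regions of 3000 and 11200 bp at an end. Within the gene and 1000 bp on each side, however, H3K4me3 covered 4656 bp at Rxra and 3589 bp at Rxrb. Rxra also had 1300 bp of succinyllysine inside the gene, away from its ends.

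Other immediate-early families also carried succinyllysine. It lay at 4 of 7 AP-1 genes (5.42% of all genes). The widest region was 3400 bp at Fosl2, 2900 bp at Fos, 2100 bp at Jund and 700 bp at Jun. Within the gene and 1000 bp on each side, succinyllysine covered 3400, 811, 2562 and 622 bp of these in turn. It lay at 5 of 14 further early genes. The widest region was 3800 bp at Btg2, 1800 bp at Dusp6, Zfp36 and Ccn1, and 1300 bp at Ier3. The cover in the same window was 855, 870, 1628, 885 and 888 bp in turn. No difference between these lists was tested. H3K4me3 marked 7 of 7 and 13 of 14 of these genes (55.6% of all genes), and Npas4, an activity-dependent factor of neurons, was the exception. H3K27me3 lay at an end of none of the 21, beside 13.6% of all genes and Egr4 among the 8.

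**Figure D5:**
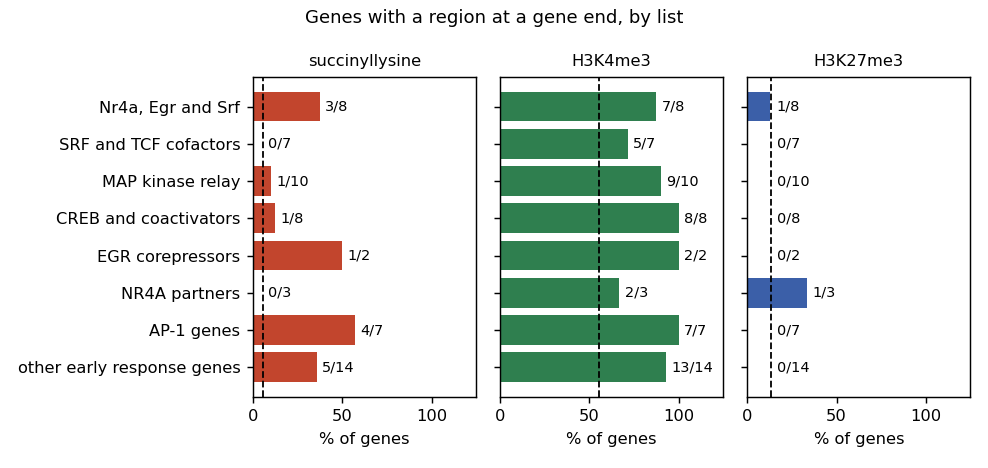
Share of genes with a region at a gene end (x axis, percent) for each list and antibody, with counts at the bars and the share of all protein-coding genes as a dashed line. Succinyllysine lies at 3 of 8 Nr4a, Egr and Srf genes, 4 of 7 AP-1 genes and 5 of 14 other early genes.

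The genes most like each Nr4a gene were found by the bp that each mark covered in the gene and 1000 bp on each side, over the 3 lists. Nr4a1 had 6399 bp of succinyllysine and 5400 bp of H3K4me3. Its nearest were Tln2, for the cytoskeletal linker talin 2 (6816 and 5645 bp), and Csrp1, for a LIM-domain protein (6400 and 4600 bp). Gprc5a followed (6839 and 5900 bp). Nr4a2, with 2000 and 8200 bp, was nearest to Ripor1 (2000 and 8000 bp), Cbx5, for heterochromatin protein HP1α (2000 and 8404 bp), and Anp32a (2100 and 8058 bp). Nr4a3, with 223 and 3823 bp, was nearest to Smc1a, a cohesin subunit (200 and 3873 bp), Dnajc11 and Vcp. None of these genes had H3K27me3 in that window. At least 3 succinyllysine regions in this window, as at Nr4a1, occurred in 1.67% of all genes, and at least 2, as at Nr4a2, in 3.36%.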

How the data were processed

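For each antibody the authors deposited 1 list of start and end positions on mm10. Alignment used Bowtie2 (version 2.2.3) and mm10, per the submitters' processing notes. How regions were called, with which threshold and input, and how samples were pooled is not stated in the labels or files. Region edges lay on a grid of 100 bp and were taken as 1-based, both ends included. Pooling hides whether a region came from 1 line or both.

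Gene bodies came from a RefSeq table for GRCm38.p6, and starts and promoters from a RefSeq promoter table, in which 6 of the 8 genes matched. Regions were classed as at an end, inside or beyond with Python 3.11.15 and pandas 2.3.3, with an overlap of at least 1 bp. Classes were checked on simulated regions. Motifs were searched on both strands of 300 bases, 250 before and 50 after each start: the CArG box (6 bases of A or T between the flanking pairs), the CRE palindrome TGACGTCA with its core TGACG, the ETS core CCGGAA, the EGR element GCGNGGGCG, the Nr4a element AAAGGTCA, the GC box GGGCGG, found for 5 of the 6 genes (35.7% of all promoters), and the TATA box TATAAA, found for 2 (13.6%). Pathway genes were named where they carried succinyllysine, neighbours where a region touched their ends, and the 3 most alike genes by covered bp. Myocd, Rxra, Rxrb, Rxrg and Npas4 were named after their values were seen. The members and lists were chosen with earlier results of these data known. The input samples were not analysed here.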

Additional observations from a re-analysis of the deposited data

How the results depend on the processing

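Of 43 alternatives, 33 gave a count within 1.5 times the reported one and 10 did not. Counts of regions beyond the genes moved with the reach. For succinyllysine, 1 region became 8 at 100 kb, and it became 0 when regions within 1000 bp were merged. H3K4me3 regions went from 11 to 7 at 20 kb and to 28 at 100 kb. H3K27me3 regions went from 35 to 12 at 20 kb, to 55 at 100 kb and to 9 when merged. By region midpoint, H3K4me3 inside the gene fell from 7 genes to 4, and H3K27me3 at an end from 1 gene to 0, since the wide regions beside Egr4 have their midpoints outside its windows. With 1 mismatch allowed, the CArG box was found for 4 genes in place of 2, beside 21.1% of all promoters. Succinyllysine at an end stayed at 2 or 3 genes under each alternative. No paired analysis was possible because the lists hold no values per sample, and leaving out a replicate was not possible for the same reason. Read depth, which limits what a missing region means, is unknown.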

Other observations

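Adjacent regions without any gap were frequent in the lists. A region began directly after the preceding one in 417 cases of 10888 for succinyllysine (3.83%), 1911 of 26654 for H3K4me3 (7.17%) and 12789 of 98342 for H3K27me3 (13.0%). Near the 8 genes this occurred 1 time for succinyllysine, 4 times for H3K4me3 and 7 times for H3K27me3. Region counts and single-region widths in these stretches therefore depend on where the lists divide them.

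Some succinyllysine regions shared an edge with an H3K4me3 region. Of the 1840 succinyllysine regions that touched H3K4me3, 448 (24.3%) shared a start or an end with an H3K4me3 region. Near the 8 genes this held for 3 of 7, all at Nr4a1. The share expected for overlapping regions on a grid of 100 bp was not computed, and how the lists came to share edges was not tested.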
